A study of Mus musculus with 4 samples.

Results

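A list of 37 immediate early and dissociation stress genes was read here in single-cell RNA-seq of whole mouse lung, and all 37 were among the 20076 genes of the count matrix. They were taken by name, not by how they moved: 9 AP-1 factors (Fos, Fosb, Fosl1, Fosl2, Jun, Junb, Jund, Atf3 and Maff), 6 EGR and NR4A factors (Egr1, Egr2, Egr3, Nr4a1, Nr4a2 and Nr4a3), 11 feedback regulators (Ier2, Ier3, Ier5, Dusp1, Dusp2, Dusp5, Btg2, Zfp36, Zfp36l1, Socs3 and Rhob), 4 other early transcription factors (Myc, Klf6, Klf10 and Csrnp1), 3 growth arrest and stress response genes (Gadd45b, Gadd45g and Ppp1r15a) and 4 heat shock genes (Hspa1a, Hspa1b, Dnajb1 and Hsph1).

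Immediate early genes are transcribed within minutes of a stimulus, from factors that are already present in the cell, and need no new protein. Growth factors, stretch, heat and the enzymes that free cells from a tissue all switch them on, so in single-cell data they report both the state of the cell in the organ and its handling on the way to the droplet. Most of their messages are short-lived, and many encode transcription factors (the FOS, JUN, EGR and NR4A families) or brakes that end the same signals (phosphatases of the DUSP family, SOCS3, the RNA-binding protein ZFP36). Heat shock chaperones join them when proteins unfold.

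The study deleted ERG, an ETS-family transcription factor of endothelial cells (ECs), from the vasculature. The WT group carried ERG fl/fl, and the ERG CKO group carried CDH5-CreER(T):ERG fl/fl, in which the endothelial Cdh5 promoter drives a tamoxifen-dependent Cre. Both groups received tamoxifen, given as 5 daily injections of 0.5 mg, and the lungs were taken 90 days later from mice whose age is not given in the sources used here. Each group had 2 libraries of 1 mouse each, so p-values rest on 2 mice against 2. The series' design text names a commercial lung dissociation kit, whereas the study's methods describe digestion with Liberase and DNase, and genes that respond to dissociation may depend on which was used. The design asks which of these genes differed with the loss of ERG in ECs, and whether the same genes differed in cells in which Cre driven by the Cdh5 promoter is not expected to be active.

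The matrix held 9363 cells, between 1852 and 3097 per library, with 11263911 to 18646776 unique molecular identifiers (UMIs) per library and a median of 4611 to 4899 UMIs per cell. Of the cell barcodes, 7 occurred in more than 1 library (14 cells). Cell classes were rebuilt by clustering without the 37 genes and named from marker genes, so "endothelial cells" stands for endothelial-like clusters throughout, likewise for every other class, and where values part from those of the study the rebuilt names may be the reason. Of 14 named classes, 10 had at least 20 cells in every library and were tested, and 1395 cells stayed unnamed. Among these, clusters of 720 and 321 shallow cells scored best on endothelial markers. The first held 141 and 96 WT but 359 and 124 ERG CKO cells, the second 54 and 67 WT but 94 and 106 ERG CKO cells. Another unnamed cluster, of 329 cells, scored best on T cell markers. The EC and T cell values leave these cells out, and the part of this in the differences was not tested. The targeted gene does not check the labels here. Erg stood at 86.1 and 90.2 CPM (UMIs scaled to a common total per class and library) in WT ECs and at 106 and 84.1 CPM in ERG CKO ECs, from 224 to 476 UMIs per library (log2 difference 0.08, SE 0.15, adjusted p = 0.886, edgeR), and a single count per gene cannot show the loss of the floxed stretch alone. The groups below are therefore the libraries labelled WT and ERG CKO.

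The promoters of 6 members that the results turn on are shown first: the 4 genes that changed in ECs and, of the members called between capillary subtypes, the 2 whose genotype difference was furthest apart. Each line gives the 250 bases before the RefSeq transcription start on GRCm38.p6, 5′ to 3′ on the strand of the gene. Capitals mark 2 of the 5 motifs searched on both strands, namely the cyclic AMP response element TGACGTCA, which CREB and ATF factors bind, and the ETS core GGAAG, printed as its complement where it lay on the other strand, the short motif that ERG shares with other ETS factors.
Nr4a1, chr15:101266596-101266845, plus strand: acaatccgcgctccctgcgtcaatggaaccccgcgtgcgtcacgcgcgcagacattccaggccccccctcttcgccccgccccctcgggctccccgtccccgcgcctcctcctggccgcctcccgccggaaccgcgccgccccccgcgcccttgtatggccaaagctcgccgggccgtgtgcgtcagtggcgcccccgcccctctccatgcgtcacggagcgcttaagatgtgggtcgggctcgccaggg
Ier5, chr1:155099637-155099886, minus strand: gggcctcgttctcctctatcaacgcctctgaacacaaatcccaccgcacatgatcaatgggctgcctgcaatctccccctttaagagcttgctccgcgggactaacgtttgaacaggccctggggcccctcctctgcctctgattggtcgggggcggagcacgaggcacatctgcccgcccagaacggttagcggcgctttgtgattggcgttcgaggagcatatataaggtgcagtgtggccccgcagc
Dnajb1, chr8:83607925-83608174, plus strand: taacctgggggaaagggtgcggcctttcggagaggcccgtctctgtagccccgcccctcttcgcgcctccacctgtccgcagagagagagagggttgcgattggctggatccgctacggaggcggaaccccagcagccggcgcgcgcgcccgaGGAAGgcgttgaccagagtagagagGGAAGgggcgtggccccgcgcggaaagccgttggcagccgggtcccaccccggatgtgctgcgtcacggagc
Ppp1r15a, chr7:45526269-45526518, minus strand: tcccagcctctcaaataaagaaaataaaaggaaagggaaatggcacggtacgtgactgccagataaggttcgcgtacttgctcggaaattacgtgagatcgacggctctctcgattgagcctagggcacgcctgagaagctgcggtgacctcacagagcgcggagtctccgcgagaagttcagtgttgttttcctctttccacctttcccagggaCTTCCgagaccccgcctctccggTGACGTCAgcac
Btg2, chr1:134079156-134079405, minus strand: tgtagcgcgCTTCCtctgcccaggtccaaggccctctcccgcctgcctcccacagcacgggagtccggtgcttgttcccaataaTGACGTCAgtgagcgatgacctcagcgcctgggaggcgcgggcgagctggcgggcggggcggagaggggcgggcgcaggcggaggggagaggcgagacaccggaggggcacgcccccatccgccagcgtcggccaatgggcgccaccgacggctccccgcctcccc
Socs3, chr11:117969367-117969616, minus strand: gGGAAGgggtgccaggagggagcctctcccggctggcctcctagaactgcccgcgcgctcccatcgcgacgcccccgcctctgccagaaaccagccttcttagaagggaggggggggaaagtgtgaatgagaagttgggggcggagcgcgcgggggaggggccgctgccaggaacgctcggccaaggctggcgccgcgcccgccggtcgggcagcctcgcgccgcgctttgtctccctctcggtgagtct

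RefSeq starts were matched for 31 of the 37 genes, leaving out Fosl1, Egr1, Egr3, Ier2, Myc and Klf10. The cyclic AMP response element stood in 3 of these 31 windows (Btg2, Dusp1 and Ppp1r15a), against 1.62% of 27025 promoters of the same length. In Ppp1r15a it lay 12 to 5 bases before the start, and in Btg2 166 to 159 bases before it. The ETS core, a common run of 5 letters, was present in 21 of 31 members (67.7%) and in 63.6% of all promoters. The CArG box of serum response factor was found in Dusp5 and Zfp36 (1.40% of all promoters), the AP-1 element TGANTCA in Zfp36l1 alone (6.87%), and the heat shock element core (GAA, any 2 bases, then TTC) in Fosl2, Hspa1a, Hspa1b and Jun (6.78%). No member had both the AP-1 element and the cyclic AMP response element, whereas in Hspa1a and Hspa1b the heat shock core (104 to 97 bases before the start) overlapped an ETS core (105 to 101). A match is a run of letters in this window, and its absence says nothing of the factor.

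As a share of all UMIs, the 37 genes together stood highest in mast cells or basophils and neutrophils and, among tested classes, lowest in T and NK cells. In ECs they took 2.88% and 3.09% of UMIs in the WT libraries and 2.41% and 2.33% in the ERG CKO libraries, and the groups did not overlap. In fibroblasts the WT libraries gave 2.43% and 2.55% and the ERG CKO libraries 1.69% and 1.85%, also without overlap. Neutrophils gave 6.18% and 5.68% (WT) against 3.96% and 5.47% (ERG CKO), again without overlap. Mural cells, with only 10 cells in ERG CKO 2, were apart too (2.82% and 3.17% against 2.54% and 0.792%).
Lymphocytes lay far lower and their groups overlapped. The shares were 1.40% and 1.498% against 1.04% and 1.43% in B cells, 1.11% and 1.21% against 0.989% and 1.19% in T cells, and 1.06% and 1.27% against 0.961% and 1.31% in NK cells. ERG CKO 1 held the lowest share of the 4 libraries in all these 3 classes, as in neutrophils and in monocytes (1.22%, against 1.45% to 1.51% in the other 3 libraries). Alveolar macrophages were the steadiest class, with 1.30% to 1.40% in every library.

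**Figure D1:**
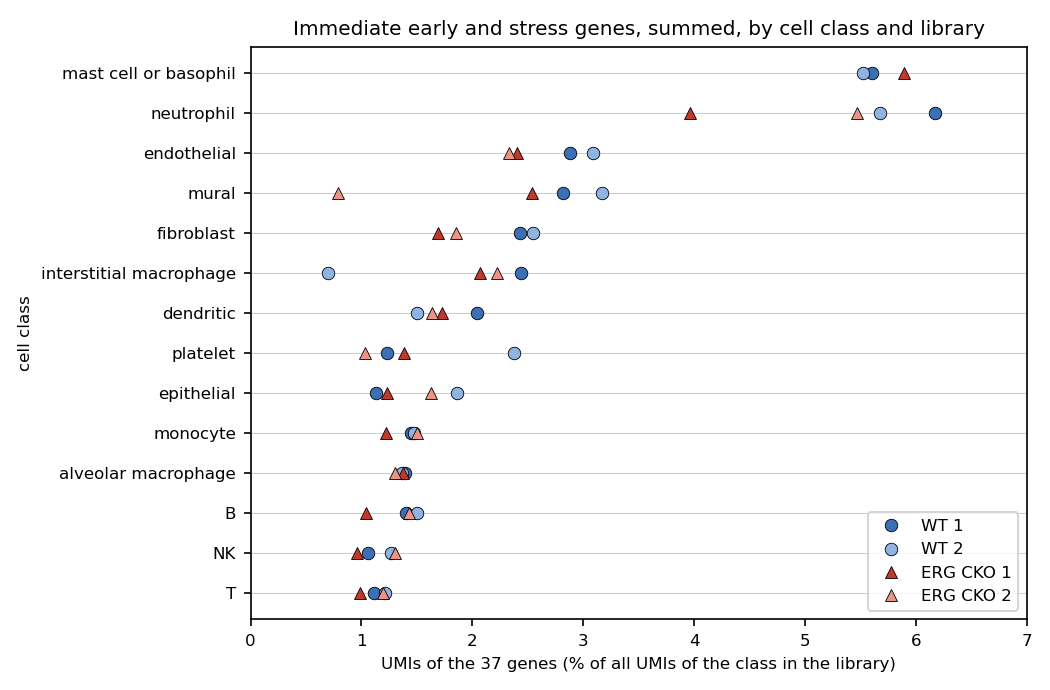
Share of all UMIs (%) taken by the 37 genes together in each cell class, 1 point per library (circles WT, triangles ERG CKO). In ECs, fibroblasts, neutrophils and mural cells both ERG CKO points lie left of both WT points. In B, NK, T, dendritic and monocyte cells the groups overlap. Mast cells or basophils, mural cells, epithelial cells and interstitial macrophages had under 20 cells in at least 1 library.

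In ECs, 34 of the 37 genes had enough counts to be tested, and 4 passed. Ier5, Ppp1r15a and Dnajb1 fell in the ERG CKO libraries and Nr4a1 rose. Over all 10643 genes tested, 1.23% were called lower and 1.94% higher. Both ERG CKO libraries lay below both WT libraries for 17 of the 34 genes, against 19.1% of all genes tested, and above them for 5, against 27.4%. The median log2 difference was -0.32 over the 34 genes and 0.01 over all genes. Fosl1, Egr3 and Myc, with 7, 23 and 32 UMIs in all ECs, were not tested. ERG CKO ECs were deeper, at a median of 5504 and 4686 UMIs per cell against 4222 and 4030 in WT. With every cell thinned to 1000 UMIs, Ier5 and Ppp1r15a were still called by edgeR, but Dnajb1 and Nr4a1 were not.

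Ier5, an early response gene that assists heat shock factor HSF1, stood at 677 and 732 CPM in WT and at 406 and 387 CPM in ERG CKO ECs. Both ERG CKO libraries lay well below both WT libraries (log2 difference -0.87, SE 0.13, adjusted p = 0.0187, edgeR quasi-likelihood test with Benjamini-Hochberg adjustment, as for all adjusted p-values here). Ppp1r15a, which encodes GADD34, the phosphatase subunit that restarts translation after stress, read 566 and 513 CPM in WT and 328 and 311 CPM in ERG CKO. The groups were again apart (log2 difference -0.80, SE 0.13, edgeR adjusted p = 0.0258). Dnajb1, an HSP40 co-chaperone, gave 196 and 199 CPM in WT and 121 and 99.5 CPM in ERG CKO. Here the WT libraries were nearly equal and the ERG CKO libraries lower by -0.87 on the log2 scale (SE 0.14, edgeR adjusted p = 0.0233). Nr4a1, an orphan nuclear receptor induced by calcium and growth factor signals, moved the other way, from 97.4 and 78.5 CPM in WT to 155 and 169 CPM in ERG CKO (log2 difference 0.84, SE 0.14, edgeR adjusted p = 0.0266). These calls leaned on WT 2, since no member was called in ECs when that library was left out whereas 3, 10 and 4 were called without WT 1, ERG CKO 1 and ERG CKO 2. Without WT 2 the log2 differences kept their direction (Ier5 -0.82, Ppp1r15a -0.87, Dnajb1 -0.87 and Nr4a1 0.69, edgeR adjusted p between 0.0703 and 0.156), and without WT 1 Ppp1r15a and Dnajb1 also missed the threshold (edgeR adjusted p = 0.132 and 0.0527).

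The AP-1 factors, which pair as FOS and JUN dimers, were among the most abundant members. None of the 8 tested was called by edgeR, while 4 had an unadjusted p under 0.05 (Jun, Junb, Fosb and Atf3), as had 1755 of all 10643 genes. Of the 8 factors, 5 were lower in both ERG CKO libraries and none higher in both. Jun read 4229 and 4250 CPM in WT and 3195 and 3398 CPM in ERG CKO (log2 difference -0.40, SE 0.11, edgeR adjusted p = 0.114). Junb read 3457 and 3847 CPM against 2773 and 2971 CPM (-0.39, SE 0.12), and Jund 1923 and 2258 CPM against 1622 and 1907 CPM (-0.29, SE 0.14). All 3 JUN genes were lower in both ERG CKO libraries, by less than this test could call, though Jun and Junb were called with replicate number as a block. Atf3, a stress-induced partner of JUN, ranged more widely, at 971 and 1094 CPM in WT and 771 and 520 CPM in ERG CKO (-0.71, SE 0.20, edgeR adjusted p = 0.119). Fosb gave 713 and 668 CPM against 473 and 518 CPM (-0.52, SE 0.13). Fos itself did not follow its partners, with 1605 and 1719 CPM in WT and 1628 and 1611 CPM in ERG CKO, and the groups overlapped (-0.08, SE 0.12). Fosl2 and Maff, between 34.5 and 61.9 CPM, overlapped as well.

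The EGR and NR4A factors did not move as 1 group. Egr1, a zinc finger factor downstream of ERK signalling, read 2331 and 2369 CPM in WT and 1723 and 1616 CPM in ERG CKO, with no overlap (log2 difference -0.53, SE 0.12, edgeR adjusted p = 0.0661). Nr4a2, a close relative of Nr4a1, was at 22.3 and 19.4 CPM in WT and 26.8 and 37.5 CPM in ERG CKO (0.56, SE 0.21, edgeR adjusted p = 0.236). Egr2 was rarer, with 5.13 and 3.56 CPM against 6.65 and 9.39 CPM (0.82, SE 0.39). Thus the sole member of the family called was Nr4a1, while Nr4a2 and Egr2 were higher in both ERG CKO libraries without passing. Nr4a3 overlapped at 3.30 to 6.01 CPM.

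Among the 11 feedback regulators, 8 were lower and 2 higher in both ERG CKO libraries, and Ier5 alone was called. Ier3, an early gene that modulates ERK and survival signals, read 2668 and 2896 CPM in WT and 2147 and 1772 CPM in ERG CKO (log2 difference -0.54, SE 0.14). Ier2 gave 1546 and 1756 CPM against 1142 and 1190 CPM (-0.54, SE 0.13, edgeR adjusted p = 0.0708). Socs3, the brake on cytokine signalling through STAT3, gave 1383 and 1665 CPM against 1149 and 1042 CPM (-0.51, SE 0.14). In each of these 3 genes every ERG CKO library was below every WT library, and none passed the threshold. The MAP kinase phosphatase Dusp1 read 1226 and 1025 CPM against 998 and 736 CPM (-0.41, SE 0.18), with ERG CKO 1 close to WT 2. Zfp36, which speeds the decay of AU-rich messages, likewise read 852 and 1027 CPM against 844 and 630 CPM (-0.39, SE 0.18). Btg2, an antiproliferative cofactor of deadenylation, overlapped, at 1877 and 2110 CPM in WT and 1868 and 2019 CPM in ERG CKO (-0.08, SE 0.12). The 2 genes higher in both ERG CKO libraries were the small GTPase Rhob (330 and 349 CPM against 398 and 405 CPM) and the phosphatase Dusp2, which stayed at 4.03 to 6.87 CPM.

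The remaining members were less abundant and more scattered. Of the heat shock genes only Dnajb1 separated the groups. The inducible HSP70 genes Hspa1a and Hspa1b varied more between the 2 WT mice (172 and 301 CPM, and 115 and 249 CPM) than between genotypes, and since they are near-identical copies, the split of reads between them is uncertain. Klf10, a TGF-beta-inducible repressor, fell just short of the call, at 45.0 and 67.6 CPM in WT and 29.5 and 29.3 CPM in ERG CKO (log2 difference -0.98, SE 0.21, edgeR adjusted p = 0.0518). Gadd45b and Gadd45g, sensors of genotoxic stress, overlapped between groups.

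**Figure D2:**
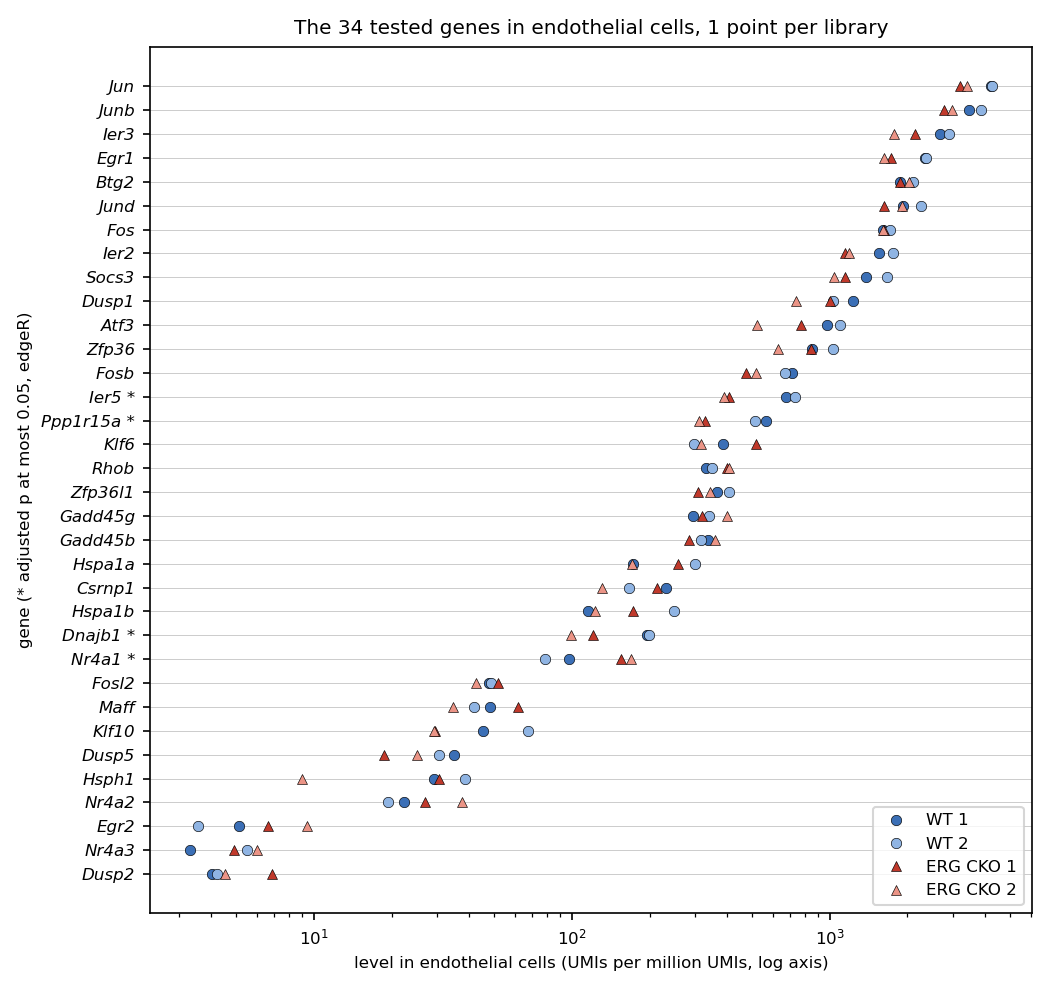
Level of each of the 34 tested genes in ECs (CPM, log axis), ordered by mean level, 1 point per library (circles WT, triangles ERG CKO), with an asterisk on the 4 genes called by edgeR. Ier5, Ppp1r15a and Dnajb1 show both triangles left of both circles, and Nr4a1 shows them on the right, between 155 and 169 CPM.

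Transcripts of other cell types moved with genotype in the same ECs. The summed level of 6 erythroid genes was 36.3 and 46.9 CPM in WT ECs and 1571 and 2226 CPM in ERG CKO ECs, that of 7 platelet genes was 55.7 and 91.5 CPM against 257 and 162 CPM, and that of 8 endothelial markers was 19010 and 19901 CPM against 14917 and 15946 CPM. All 6 erythroid genes were detected in ERG CKO 1 and 5 of 6 in each other library, and the part of this RNA in the differences above was not tested.

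Within single ECs the members' summed share spread widely, from cells almost without these transcripts to cells in which they exceeded 5% of UMIs. Of WT ECs 19.3% and 19.9% lay under 1%, and of ERG CKO ECs 32.7% and 42.4% (113, 133, 234 and 207 cells). The exact binomial 95% intervals were 16.2% to 22.7% and 16.9% to 23.1% for WT, and 29.3% to 36.3% and 38.0% to 46.9% for ERG CKO, and they cover counting error only. With every cell thinned to 1000 UMIs the values were 18.8%, 18.9%, 31.1% and 41.4%, leaving out 4 to 7 shallower cells per library. The upper end of the distribution moved less: the 90th percentile lay at 5.12% and 5.62% for the WT libraries against 4.90% and 4.98% for ERG CKO. The lower summed share of the ERG CKO libraries thus went with more cells of low share. In every library the low cells had a higher median mitochondrial share than the others, for instance 4.02% against 3.62% in WT 1 and 4.85% against 3.81% in ERG CKO 1, and their median depth was also lower (4759 against 5787 UMIs in ERG CKO 1). The part of cell quality in this split was not tested.

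**Figure D3:**
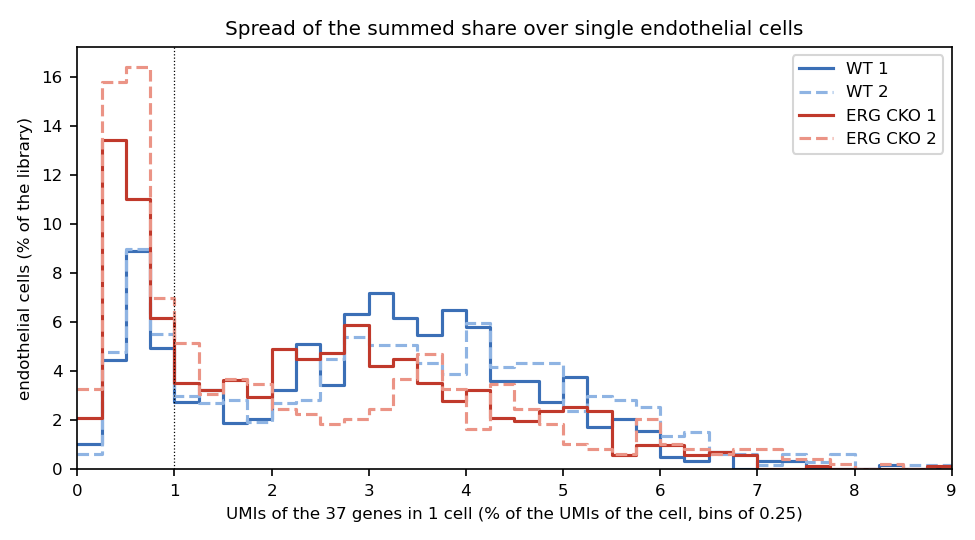
Distribution of the summed share of the 37 genes over single ECs (x axis, % of the UMIs of a cell in bins of 0.25; y axis, % of the ECs of the library), with 1 line per library and a dotted line at 1%. The peak under 1% is taller in both ERG CKO libraries (32.7% and 42.4% of cells) than in both WT libraries (19.3% and 19.9%).

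The subtypes of lung endothelium did not share this pattern. General capillary cells (gCap) are the stem-like capillary cells that repair the bed, and aerocytes (aCap) are the thin capillary cells of gas exchange. Both were split by their markers, giving 276 to 459 gCap and 43 to 113 aCap cells per library. These numbers differed with genotype. The gCap cells numbered 410 and 459 (WT) against 371 and 276 (ERG CKO). For aCap the cells were 43 and 71 (WT) against 113 and 100 (ERG CKO). The part of this shift between subtypes in the differences of all ECs was not tested. In gCap cells the 37 genes took 3.17% and 3.49% of UMIs for the WT libraries, against 2.59% and 2.49% for the ERG CKO libraries. In the cells grouped as aCap after the libraries were aligned, the values were 1.23% and 1.56% for WT against 2.48% and 2.002% for ERG CKO. WT aerocytes stood far below WT general capillary cells in these genes, while in the ERG CKO libraries the subtypes lay close together. Vein cells resembled gCap cells (2.92% and 3.40% against 1.94% and 1.56%), and artery cells, with 20 to 25 cells per library, overlapped at 2.36% to 3.28%. Among aerocytes, 69.8% and 57.7% of WT cells lay under 1%, but 34.5% and 44.0% of ERG CKO cells. Among gCap cells it was 15.1% and 15.3% (WT) against 29.4% and 43.5% (ERG CKO).

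The genotype difference of the 2 subtypes was then compared directly, within library, a test chosen after these values were seen. Of 31 members tested, 19 had a higher and 1 (Klf10) a lower ERG CKO over WT difference in aCap than in gCap, where 3.14% and 3.82% of 9324 genes were called in each direction. The median of this difference of differences was 0.93 on the log2 scale over the 31 members and 0.02 over all genes. Taken alone, aCap cells had 14 of 30 tested members higher in ERG CKO (6% of 6945 genes) and 2 lower, Klf10 and the chaperone gene Hsph1 (6.45%). In gCap cells alone, Nr4a1 was higher, where 1.46% of 9681 genes were, and Ier5, Ppp1r15a, Dnajb1 and Fosb were lower, where 0.589% were.

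Among the members called, Socs3 had the largest difference between subtypes. It read 276 and 327 CPM in WT and 860 and 724 CPM in ERG CKO aerocytes, but 1580 and 2013 CPM in WT and 1368 and 1206 CPM in ERG CKO gCap cells. The 2 subtypes differed in their log2 difference by 1.87 (SE 0.16, edgeR adjusted p = 8.3e-09). Btg2 read 525 and 702 CPM in WT and 1969 and 1755 CPM in ERG CKO aerocytes, whereas gCap cells held 2156 and 2525 CPM against 2072 and 2113 CPM (difference 1.76, SE 0.15, edgeR adjusted p = 7.4e-09). In both genes the ERG CKO aerocytes reached toward the gCap level without passing it. Fos rose from 461 and 720 CPM to 1807 and 1123 CPM in aerocytes and stayed within 1524 to 1742 CPM in gCap cells. Nr4a1 was called higher in both subtypes, from 37.04 and 42.8 CPM to 180 and 146 CPM in aCap and from 86.5 and 65.3 CPM to 133 and 181 CPM in gCap (log2 differences 1.98 and 1.005), and the subtypes' difference of 0.93 did not pass (SE 0.34, edgeR adjusted p = 0.110).

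The matching of aerocytes between genotypes rested on this alignment. When the same cells were clustered without it, 39 of 43 and 69 of 71 WT aerocytes lay in a cluster of 118 cells (led by Fibin and Ednrb) that held 4 and 1 cells of the ERG CKO libraries. Of the ERG CKO aerocytes, 109 of 113 and 99 of 100 lay in another cluster, of 665 cells (led by Emcn and Scn7a), which held 3 and 5 WT cells. That cluster also took 132 of 371 and 106 of 276 ERG CKO gCap cells, in which the members made up 2.44% and 2.95% of UMIs, against 2.51% and 2.02% in its aerocytes. The gCap cells of the cluster that libraries of both genotypes shared (400 and 458 WT, 229 and 157 ERG CKO cells), gave 3.18% and 3.49% for WT against 2.65% and 2.03% for ERG CKO. The part of the alignment in the aerocyte values, and in the calls between subtypes, was not tested.

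The aerocyte markers themselves moved with genotype. Their summed level over 7 genes in aCap cells was 13626 and 13194 CPM in WT and 4352 and 6108 CPM in ERG CKO, while the 8 gCap markers in the same cells gave 2131 and 1970 CPM against 1752 and 1379 CPM. Restricting aerocytes to cells with at least 5000 CPM of aCap markers kept 43 and 71 WT cells but 30 and 48 ERG CKO cells, and the members' share was then 1.23% and 1.56% against 2.45% and 1.97%. In these cells 19 members were still called apart from gCap, all of them among the 20, where 415 of 9008 genes were called. With cells thinned to 1000 UMIs, 12 of 27 members and 143 of 4543 genes were called.

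**Figure D4:**
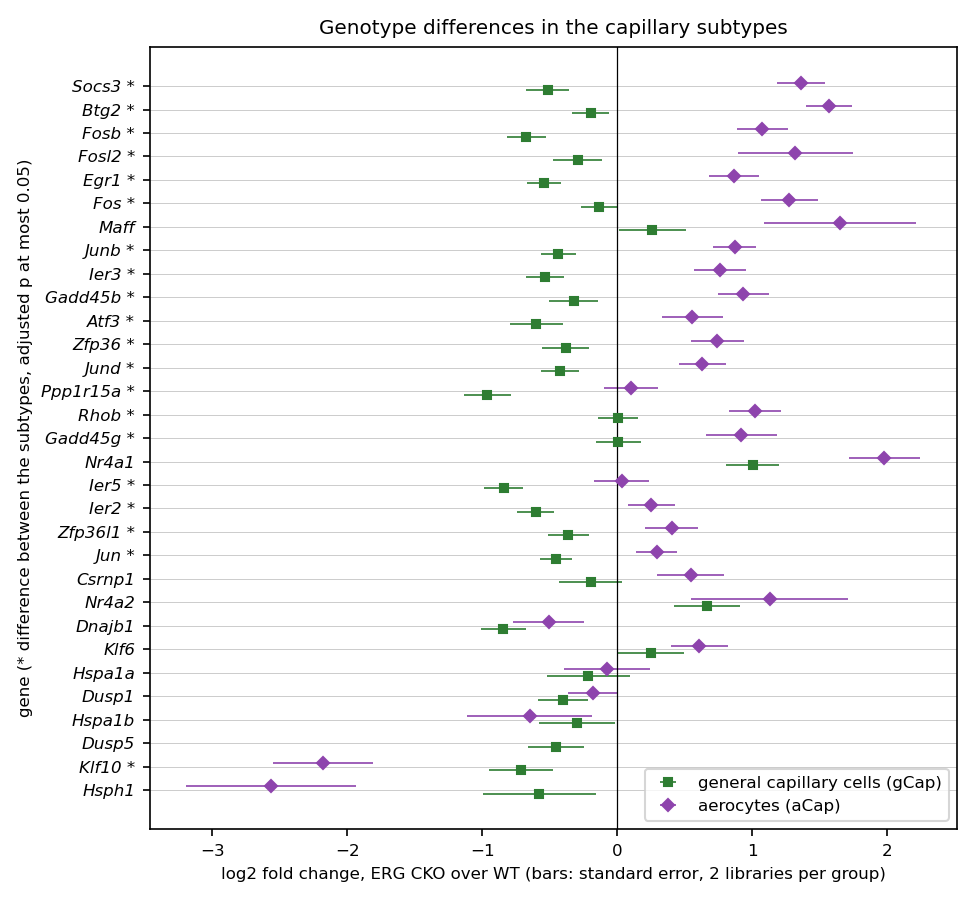
Genotype difference (x axis, log2 of ERG CKO over WT, bars 1 SE from 2 libraries per group) of 31 members in gCap cells (squares) and aerocytes (diamonds), with an asterisk where the subtypes differed by edgeR. Most diamonds lie right of 0 and most squares left of it, Socs3 and Btg2 are furthest apart among the members with an asterisk, and Nr4a1 lies right of 0 in both.

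In fibroblasts most tested members were lower in ERG CKO. Of 33 tested, 23 lay below both WT libraries in both ERG CKO libraries (19.5% of 7637 genes) and none above (17.8%), with a median log2 difference of -0.49. Nr4a1 was the member called, where 0.118% of genes were called lower. It fell from 400 and 494 CPM to 205 and 193 CPM (log2 difference -1.14, SE 0.22, edgeR adjusted p = 0.0419), opposite to its rise in ECs. This call was lost with replicate number as a block, in cells thinned to 1000 UMIs and at clustering resolution 1.2. Junb, the highest member in fibroblasts, read 2734 and 3240 CPM in WT and 1806 and 2014 CPM in ERG CKO and did not pass (-0.64, SE 0.17). The fibroblast class was small (127, 72, 164 and 25 cells) and shallower in ERG CKO (median UMIs 5012 and 4330 against 2307 and 3522), with more cells under 1% (67.7% and 64.0% against 35.4% and 38.9%). It also held RNA of other cells: all 8 endothelial markers were detected in every library, summing to 4473 and 5758 CPM in WT and 5227 and 4697 CPM in ERG CKO, with Cdh5 between 455 and 606 CPM. The 7 platelet genes summed to 72.8 and 65.0 CPM in WT and 542 and 819 CPM in ERG CKO, and the erythroid list read 35.1 and 26.0 CPM in WT, 6401 CPM in ERG CKO 1 and 48.2 CPM in ERG CKO 2. The part of these transcripts in the fibroblast values was not tested.

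In T cells, Atf3 fell from 41.3 and 48.7 CPM to 12.2 and 9.11 CPM (log2 difference -2.002, SE 0.25, edgeR adjusted p = 0.0167), where 0.0471% of 8500 genes were called lower. Both ERG CKO libraries were below both WT libraries for 15 of 34 members (18.9% of all genes) and above for 6 (14.2%). In B cells, the zinc finger factor Klf6 rose from 122 and 145 CPM to 240 and 235 CPM (0.85, SE 0.19, edgeR adjusted p = 0.0453), where 0.294% of 6803 genes were called higher, and 11 of 34 members lay below (19.2%) and 4 above (14.8%). The call of Klf6 was lost without WT 1 (edgeR adjusted p = 0.386), without ERG CKO 1 (0.352) and without ERG CKO 2 (0.0928), and with DESeq2 (0.494). Junb was the highest member in both classes and its groups overlapped, at 3311 to 4438 CPM in T cells and 3010 to 4952 CPM in B cells, with ERG CKO 1 lowest in each.

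No member was called by edgeR in the other 6 classes. The background of calls was 0.0582% in NK cells, 0% in alveolar macrophages, 0.316% in dendritic cells, 0.0126% in monocytes, 0% in neutrophils and 0.0451% in platelets. At an unadjusted p under 0.05 the members numbered 6, 5, 5, 10, 6 and 4 in the same order. Over all genes tested the counts were 273 of 5158, 439 of 9271, 446 of 5071, 575 of 7941, 139 of 2931 and 121 of 2216. DESeq2 called 1 member in dendritic cells (35 genes in all), 1 in monocytes (8 genes in all) and none in the other 4 classes. The members below both WT libraries in both ERG CKO libraries were 11 of 27 in NK cells (16.3% of all genes), 10 of 36 in alveolar macrophages (18.2%), 5 of 34 in dendritic cells (18.4%), 10 of 34 in monocytes (14.4%), 15 of 31 in neutrophils (17.8%) and 7 of 24 in platelets (14.1%). Those above were 3 (17.7%), 1 (16%), 5 (19.5%), 5 (25.3%), 1 (16.3%) and none (15%). Neutrophils, which hold the most of these transcripts among tested classes, carried Junb at 13636 and 13309 CPM in WT and at 8186 and 12847 CPM in ERG CKO, so that ERG CKO 1 stood apart from the other 3 libraries. Junb was also the highest member in NK cells (2854 to 4361 CPM), alveolar macrophages (1876 to 2139 CPM), dendritic cells (2694 to 3213 CPM) and monocytes (1727 to 3018 CPM). The platelet class, where Jun led at 1503 to 2523 CPM, carried the 8 endothelial markers at 8771 to 12052 CPM, so its values are not those of platelets alone.

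**Figure D5:**
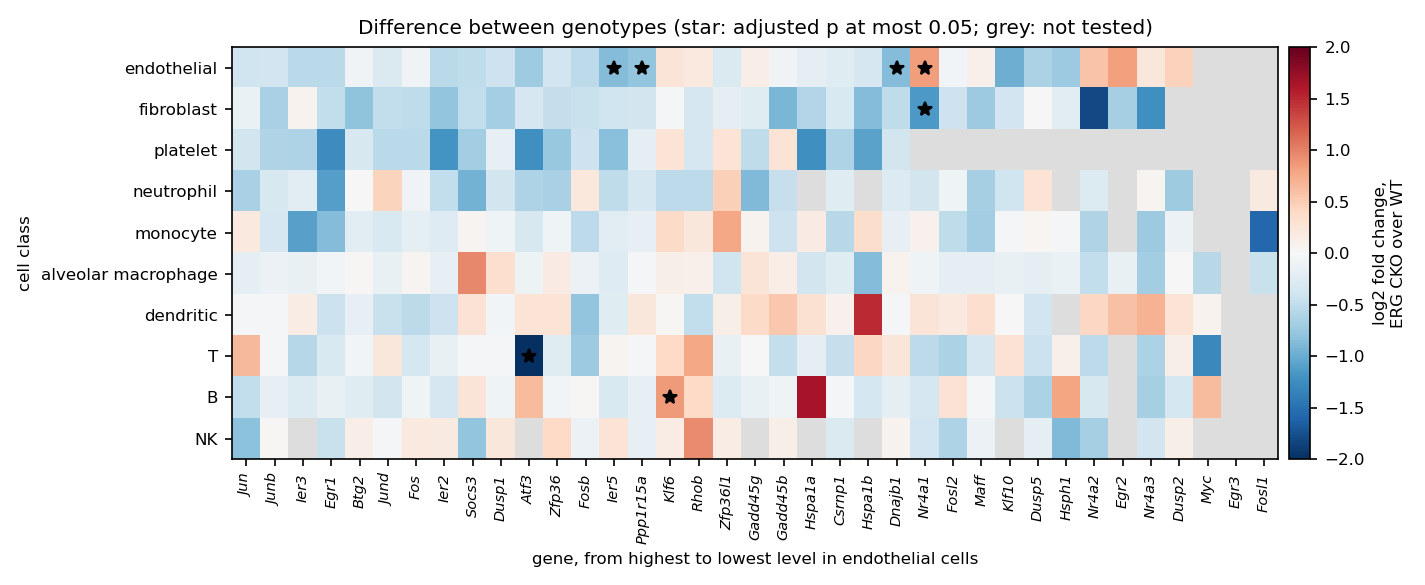
Log2 difference of ERG CKO over WT for each member (columns, from highest to lowest level in ECs) in each tested class (rows), with blue lower and red higher in ERG CKO, a star where edgeR's adjusted p was at most 0.05 and grey where not tested. The Nr4a1 column is red in ECs (0.84) and blue in fibroblasts (-1.14), and the fibroblast row is blue for most members.

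Whether ECs differed from the rest of the lung was asked of the difference itself, comparing ECs within each library with the sum of the other 9 tested classes. None of the 37 members passed this edgeR test, in which 0.0768% of 13014 genes were called. An unadjusted p under 0.05 was reached by 9 members and by 1108 of the 13014 genes, and DESeq2 and limma called no member. The members nearest to a call were Nr4a2 (difference of log2 differences 0.97, SE 0.20, edgeR adjusted p = 0.189) and Dnajb1 (-0.91, SE 0.23, edgeR adjusted p = 0.253). Without ERG CKO 1, 7 members were called, so the result depended on that library.

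Set against 1 class at a time, comparisons that all share the EC libraries and were added after the data were seen, ECs differed in 4 members from B cells (1.22% of genes called), 3 from NK cells (0.733%), 6 from T cells (1.19%), 1 from alveolar macrophages (0.61%), 3 from dendritic cells (1.28%), 4 from fibroblasts (1.06%), 3 from monocytes (1.46%), none from neutrophils (0.136%) and none from platelets (0.313%). Nr4a1 was called in 5 of these 9 comparisons and its difference was positive in 8. Against fibroblasts it was 2.003 on the log2 scale (SE 0.25, edgeR adjusted p = 5.7e-05), against T cells 1.37 (SE 0.20, edgeR adjusted p = 0.000539) and against alveolar macrophages 0.92 (SE 0.19, edgeR adjusted p = 0.0450). Nr4a2 was called in 4 comparisons. For Ier5 the log2 difference in ECs minus that in NK cells was -1.10, and minus that in T cells -0.91.

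A further 3 lists give the surroundings of these genes in ECs. Of 27 other primary response genes tested, 2 rose and 1 fell. Ctgf, a matricellular target of YAP and SRF signalling, read 68.8 and 46.5 CPM in WT and 378 and 175 CPM in ERG CKO (log2 difference 2.24, SE 0.37, edgeR adjusted p = 0.0234). Trib1, a pseudokinase, read 15.7 and 13.6 CPM against 33.3 and 34.2 CPM (1.16, SE 0.19, edgeR adjusted p = 0.0233), and Sat1, which acetylates polyamines, fell from 590 and 589 CPM to 397 and 353 CPM (-0.69, SE 0.13, edgeR adjusted p = 0.0405). Of 17 other heat shock and chaperone genes, the small heat shock gene Cryab was the one that changed, from 52.4 and 40.7 CPM to 134 and 179 CPM (1.70, SE 0.18, edgeR adjusted p = 0.00843). None of the 20 upstream factors and kinases tested, among them Srf, Hsf1 and the MAP kinases, passed, and their median log2 difference was 0.04. Outside ECs the calls in these lists were Phlda1 in dendritic cells (161 and 201 CPM against 33.1 and 30.02 CPM) and Ackr3 in fibroblasts (50.7 and 91.0 CPM against 203 and 246 CPM).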

How the data were processed

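Whole-lung single cells were captured on the 10x GemCode platform, and per the labels (the submitters' processing notes) the reads were processed with Cell Ranger 3.1.0 against mm10. The deposited matrix holds raw UMI counts per gene and cell, 20076 genes by 9363 cells over 4 libraries, and the authors had already removed shallow barcodes, since no cell has under 500 UMIs or 300 genes. The study's own quality filter, whose limits are not given in the sources used here, kept fewer cells and was not applied. A UMI is counted once however often it was amplified, and counts are not per gene length, so levels are compared within a gene.

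From these counts, cells of the 4 libraries were aligned by canonical correlation analysis and clustered in Seurat 5.3.0 (2000 variable genes, 30 dimensions, resolution 0.8, and for ECs 20 dimensions and resolution 0.6), with 44 genes, the 37 members, Erg and sex-linked genes among them, kept from the variable genes. Names came from marker lists. A second class hindered a name only where its mean marker log2 fold was at least 0.5 of that of the first, and endothelial subclusters needed a mean log2 fold of 0.25, limits chosen after seeing the data. Scrublet (scanpy 1.11.5) marked 66 cells (0.705%) as doublets, which were kept in the main result.

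Counts were summed per class and library and scaled to a common total (CPM). WT and ERG CKO were compared with edgeR 4.0.16 (quasi-likelihood test, TMM, filterByExpr, Benjamini-Hochberg over all genes of a class, threshold 0.05), run in R 4.3.3. Classes were compared by a class by genotype term with library as a covariate. SE is the size of the log2 difference over the square root of F. With 2 against 2, an exact permutation test cannot go below p = 0.333, so no single value was tested outside these fits. The tests were checked on simulated data. Alternatives used DESeq2 1.42.0, limma 3.58.1, other size factors, no low-count filter, a replicate block, left-out libraries, cells without doublets, cells under 10% mitochondrial UMIs, cells thinned to 1000 UMIs, other resolutions and no alignment. The aCap and gCap comparison and the comparisons of ECs with single classes were added after seeing the data.

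The genes given in full are those called in any class, the 12 highest in ECs and the highest in each other class. Other members and the genes of 3 further lists are given where called or to describe a group, and the further members among them were chosen after their values were seen. The members and lists were chosen with earlier results of these data known. Ccn1, Ccn2, Cebpd, Mrtfa and Mrtfb of the further lists did not match a name in the matrix, 4 of them being present under older symbols. Promoters were read from RefSeq starts on GRCm38.p6.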

Additional observations from a re-analysis of the deposited data

Results flagged for a closer look

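Groups of 2 libraries are too small to test a single library for standing apart, so the results below are those in which a genotype difference itself differed between cell groups (edgeR, adjusted p at most 0.05). All were compared after the data were seen, and the comparisons of ECs share the EC libraries.

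Between capillary subtypes, the log2 difference of ERG CKO over WT was higher in aerocytes than in general capillary cells for 19 members. Among the AP-1 factors the excess was 1.72 for Fosb, 1.62 for Fosl2, 1.38 for Fos, 1.30 for Junb, 1.12 for Atf3, 1.06 for Jund and 0.72 for Jun. The feedback regulators gave 1.87 for Socs3, 1.76 for Btg2, 1.28 for Ier3, 1.10 for Zfp36, 1.01 for Rhob, 0.86 for Ier5, 0.85 for Ier2 and 0.76 for Zfp36l1. Egr1 gave 1.38, and the stress response genes gave 1.26 for Gadd45b, 1.04 for Ppp1r15a and 0.93 for Gadd45g. Klf10 was the exception, at -1.45. Fosb was called in both subtypes, in opposite directions. Without alignment of the libraries, the WT and the ERG CKO aerocytes lay in separate clusters, and the part of the alignment in these differences was not tested.

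Between ECs and single classes, the log2 difference in ECs minus that in the other class was called for 24 member and class pairs. Nr4a1 exceeded B cells by 1.16, NK cells by 1.25, T cells by 1.37, alveolar macrophages by 0.92 and fibroblasts by 2.003. Nr4a2 exceeded NK cells by 1.26, T cells by 1.06, fibroblasts by 2.30 and monocytes by 1.15. Against fibroblasts Btg2 (0.76) and Gadd45b (0.87) were also relatively higher in ECs, and against T cells Atf3 (1.35) was.
The other pairs were relatively lower in ECs. Against B cells these were Atf3 (-1.39), Hspa1a (-1.85) and Hsph1 (-1.55), and against NK cells Ier5 (-1.10). T cells added Dnajb1 (-1.11), Ier5 (-0.91) and Jun (-1.07). Dendritic cells gave Atf3 (-1.18), Hspa1b (-1.97) and Ppp1r15a (-1.17), and monocytes gave Klf10 (-0.999) and Zfp36l1 (-1.07).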

How the results depend on the processing

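The calls rested on few mice, and their number moved with the settings. In ECs 4 members were called; DESeq2 called 8, no filter on low counts 15, the replicate block 16, thinned cells 7 and aerocytes alone 16, and leaving out 1 library gave 0 to 10. In the other classes together 3 member and class pairs were called, against 5 with DESeq2, 22 without the filter, 14 with the replicate block, 7 without doublets, 6 in thinned cells and 11 to 25 with 1 library left out, where the lone sample is assumed to vary like the others. For ECs against the other classes together the count of 0 held except with a library left out (0 to 7) and against single classes, with 4, 3, 6, 1, 3, 4 and 3 members called against B, NK, T, alveolar macrophage, dendritic, fibroblast and monocyte cells. For aCap against gCap the count of 20 (649 of 9324 genes) went to 11 with DESeq2 (189 of 9324) and 12 in thinned cells (143 of 4543). It also moved with 1 library left out. The causes were not tested.

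The deviations of same-numbered libraries had a correlation of 0.02 to 0.29 in 9 classes (over 0.1 in 7, 0.29 in ECs) and -0.19 in neutrophils. The labels do not say that a number marks a shared batch, and whether it does was not shown. The block raised the calls over all genes from 337 to 1370 in ECs, and aerocytes alone gave 865 of 6945 genes. More members called under a setting thus need not exceed the background of calls under that setting. The members the block added in ECs were Atf3, Jun, Junb, Fosb, Egr1, Ier2, Ier3, Socs3, Klf10, Dusp1, Dusp5 and Zfp36. Crossed pairing of the neutrophils, chosen after seeing the data, called 0 members, as did the block. No replicate block was added between classes, where library is already a term.

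Of 28 named log2 differences, 407 alternative values kept direction and side of the threshold in 341, lost the call in 19, gained it in 33 and turned sign in 14. Those 14 were Junb in dendritic cells (0.037 without the filter, 0.14 thinned, 0.067 unaligned, and -0.14 to 0.13 with 1 library left out, positive without WT 2 and without ERG CKO 1), in NK cells (-0.016 without doublets and -0.30 to 0.33 with 1 library left out, -0.25 without WT 1), in T cells (-0.27 to 0.17 with 1 library left out), in B cells (-0.53 to 0.13) and monocytes (-0.82 to 0.040), both positive without ERG CKO 1, Jun in platelets (-0.73 to 0.070) and Btg2 in ECs (-0.16 to 0.0017), both positive without WT 2. Over their alternatives other than aerocytes alone, Ier5, Ppp1r15a, Dnajb1 and Nr4a1 in ECs were called in 14, 13, 12 and 13 of 15, Atf3 in T cells in 12 of 13, Klf6 in B cells in 7 of 14 and Nr4a1 in fibroblasts in 11 of 14. In aerocytes alone, a grouping that rests on the alignment of the libraries, 13 values of ECs turned positive: Ier5 0.035, Ppp1r15a 0.10, Jun 0.29, Junb 0.87, Ier3 0.76, Egr1 0.87, Btg2 1.57, Jund 0.63, Fos 1.28, Ier2 0.25, Socs3 1.36, Atf3 0.56 and Zfp36 0.74. Depth limited Fosl1, Egr3 and Myc in ECs and the small classes.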
